A study of Mus musculus with 12 samples.

Results

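The transcripts described here are those of 8 poly(ADP-ribose) polymerase (PARP) genes, *Parp1*, *Parp2*, *Parp3*, *Parp9*, *Parp10*, *Parp11*, *Parp12* and *Parp14*, and of *Dtx3l*, the ubiquitin ligase that partners PARP9. They were chosen by gene symbol as 9 of the 43271 genes in the count table, in 2 classes: the 3 DNA-damage PARPs *Parp1*, *Parp2* and *Parp3*, and the 6 genes with links to interferon (*Parp9* to *Parp14* and *Dtx3l*). All 9 were among the 15649 genes that had enough reads to be tested. Poly(A)+ RNA was sequenced from MC38CEA cells, a mouse line labelled colon adenocarcinoma, in 4 groups of 3 libraries, and the labels number these as biological replicates 1 to 3. The groups were cells with the ADAM17-targeting shRNA A17.2 that had received IL1β and IFNγ (10 ng/ml each) for 6 h, cells with a control shRNA stimulated in the same way, unstimulated A17.2 cells, and unstimulated control cells. The study reports that A17.2 also lowered ADAM10, and presumes that its effect on *Nos2* was off-target. The part of ADAM17 loss in the differences between the lines was not tested. Both lines were pools of cells transduced with a lentiviral vector and selected with puromycin, and no untransduced cells were sequenced. The control vector is called SHC016 in the deposited notes, with a remark that it is cytotoxic and its cassette can be lost, but SHC002 in the methods of the study.

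PARP enzymes transfer ADP-ribose from NAD to proteins and nucleic acids. PARP1 and PARP2 bind breaks in DNA, build long poly(ADP-ribose) chains there and recruit single-strand break repair factors, and PARP3 adds single ADP-ribose units at double-strand breaks. The interferon-linked members act on another front: PARP10, PARP11, PARP12 and PARP14 add single ADP-ribose units, PARP9 works in a complex with DTX3L, and several members of this class limit viral replication or modulate STAT signalling. IFNγ signals through its receptor and the kinases JAK1 and JAK2, and GAS and ISRE elements are DNA motifs of interferon-responsive promoters, the ISRE being bound by IRF factors.

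In GRCm38 (GENCODE M21), *Parp9* (ENSMUSG00000022906.15, chr16:35938470-35972605, plus strand), *Dtx3l* (ENSMUSG00000049502.17, chr16:35926511-35939151, minus strand) and *Parp14* (ENSMUSG00000034422.14, chr16:35832874-35871544, minus strand) lie at a single locus. *Dtx3l* and *Parp9* are transcribed away from each other, their 5′ ends are 681 bases apart, and their exons share 458 bases on opposite strands, which is 8.0% of the exonic length of *Dtx3l* and 9.4% of that of *Parp9*. Whether strand was used in the counting is not given in the sources used here, so reads from this stretch cannot be assigned with certainty. *Parp14* begins 54966 bases beyond the far end of *Dtx3l*. *Parp10* (ENSMUSG00000063268.12, chr15:76231174-76243441, minus strand) shares 205 exonic bases with *Plec* on the same strand, or 4.8% of its exonic length. *Parp11* (ENSMUSG00000037997.12, chr6:127446840-127494261, plus strand) and *Parp12* (ENSMUSG00000038507.6, chr6:39086410-39118349, minus strand) are far apart on chromosome 6. The DNA-damage genes are dispersed, with *Parp1* (ENSMUSG00000026496.11) at chr1:180568924-180601254, *Parp2* (ENSMUSG00000036023.6) at chr14:50807841-50821301, both on the plus strand, and *Parp3* (ENSMUSG00000023249.15) at chr9:106470322-106476949 on the minus strand.

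RefSeq promoter windows (GRCm38.p6, 250 bases before to 50 bases after a start, given 5′ to 3′ on the strand of the gene) were matched for 6 of the 9 genes, in 7 windows, since *Parp11* has 2 starts. *Parp9*, *Parp10* and *Parp14* are named only. Both strands were searched for an ISRE-like run, GAAANNGAAA, and a GAS-like run, TTCNNNGAA. Among the matched genes only the first *Parp11* window held either. It held both, the ISRE-like run GAAATCGAAA on the other strand at positions -44 to -35 and the GAS-like run TTCTTGGAA at positions -37 to -29 (the start is position 0), so that they overlap by 3 bases. Of all 32851 windows in the table, 3.44% held the ISRE-like and 8.3% the GAS-like run. The windows of 3 genes are shown: *Parp11*, with both runs in capitals (chr6:127446590-127446889, plus strand), *Dtx3l*, whose window lies within the annotated *Parp9* gene (chr16:35938978-35939277, minus strand), and *Parp3*, the DNA-damage member whose level differed most with cytokines (chr9:106476900-106477199, minus strand).
Parp11: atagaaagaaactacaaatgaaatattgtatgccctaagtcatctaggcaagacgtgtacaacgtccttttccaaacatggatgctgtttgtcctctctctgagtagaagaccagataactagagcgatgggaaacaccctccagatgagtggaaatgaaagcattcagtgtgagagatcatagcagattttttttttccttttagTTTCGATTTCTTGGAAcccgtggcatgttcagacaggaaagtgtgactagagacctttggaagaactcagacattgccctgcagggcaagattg
Dtx3l: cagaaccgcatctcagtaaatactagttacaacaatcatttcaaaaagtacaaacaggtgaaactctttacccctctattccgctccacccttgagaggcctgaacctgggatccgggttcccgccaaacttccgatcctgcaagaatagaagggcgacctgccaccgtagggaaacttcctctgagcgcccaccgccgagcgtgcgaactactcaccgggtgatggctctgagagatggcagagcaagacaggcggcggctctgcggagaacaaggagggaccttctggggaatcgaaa
Parp3: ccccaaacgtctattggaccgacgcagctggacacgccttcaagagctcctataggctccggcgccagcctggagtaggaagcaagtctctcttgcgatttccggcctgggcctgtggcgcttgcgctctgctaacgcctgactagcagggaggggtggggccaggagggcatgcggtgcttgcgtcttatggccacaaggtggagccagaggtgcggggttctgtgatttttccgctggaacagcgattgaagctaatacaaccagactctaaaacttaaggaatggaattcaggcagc
The *Dtx3l* and *Parp3* windows have no capitals because neither run occurs in these 300 bases. A match or its absence describes the letters of the window only.

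The libraries held 16592831 to 35861103 counts each, and the 9 genes had between 247 and 18774 counts in a library. *Adam17*, the target of the shRNA, had 52.3, 42.9 and 39.5 CPM (the read count scaled to library size, with TMM factors) in stimulated A17.2 cells against 129, 103 and 95.5 CPM in stimulated control cells (log2 -1.28 ± 0.15 SE, adjusted p = 0.001). Without cytokines it had 30.8, 29.9 and 27.7 CPM in A17.2 cells against 76.1, 68.4 and 76.4 CPM in control cells (log2 -1.32 ± 0.15, adjusted p = 0.00064). The shRNA groups did not overlap in either state. The 9 epithelial markers examined, among them *Epcam*, *Cdh1* and *Krt20*, were all below 1 CPM in every library, whereas the mesenchymal gene *Vim* had 1786 to 3755 CPM, so the defining markers of the labelled epithelial tumour were at or near 0 in these libraries. Replicate 1 stood apart from replicates 2 and 3 for several members in all 4 groups, with higher *Parp3* and lower *Parp1*. Same-numbered libraries deviated together, so each comparison was also fitted with the replicate number as a block, and its adjusted p is given for a member where the call differed.

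Ranked by CPM per kilobase of exon, the order of the members changed with stimulation. In stimulated A17.2 cells *Parp3* (95.9) and *Parp12* (74.0) led, and *Parp2* (11.6) and *Parp11* (8.39 CPM per kilobase) were lowest. In stimulated control cells *Parp12* (100.1), *Parp3* (71.3) and *Parp10* (71.0) led and *Parp11* was again last. *Parp3* overlapped its neighbours in rank in both stimulated groups. In unstimulated A17.2 cells *Parp3* (33.2) and *Parp1* (30.8 CPM per kilobase) overlapped each other and lay above the other members. *Dtx3l* (2.24), *Parp14* (2.13) and *Parp11* (2.05 CPM per kilobase) were lowest there and each overlapped the next. In unstimulated control cells *Parp1* (35.6), *Parp3* (32.4) and *Parp12* (31.9 CPM per kilobase) led, each overlapping the next, and *Parp14* (5.91), *Dtx3l* (4.78) and *Parp11* (3.18 CPM per kilobase) were again lowest.

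**Figure D1:**
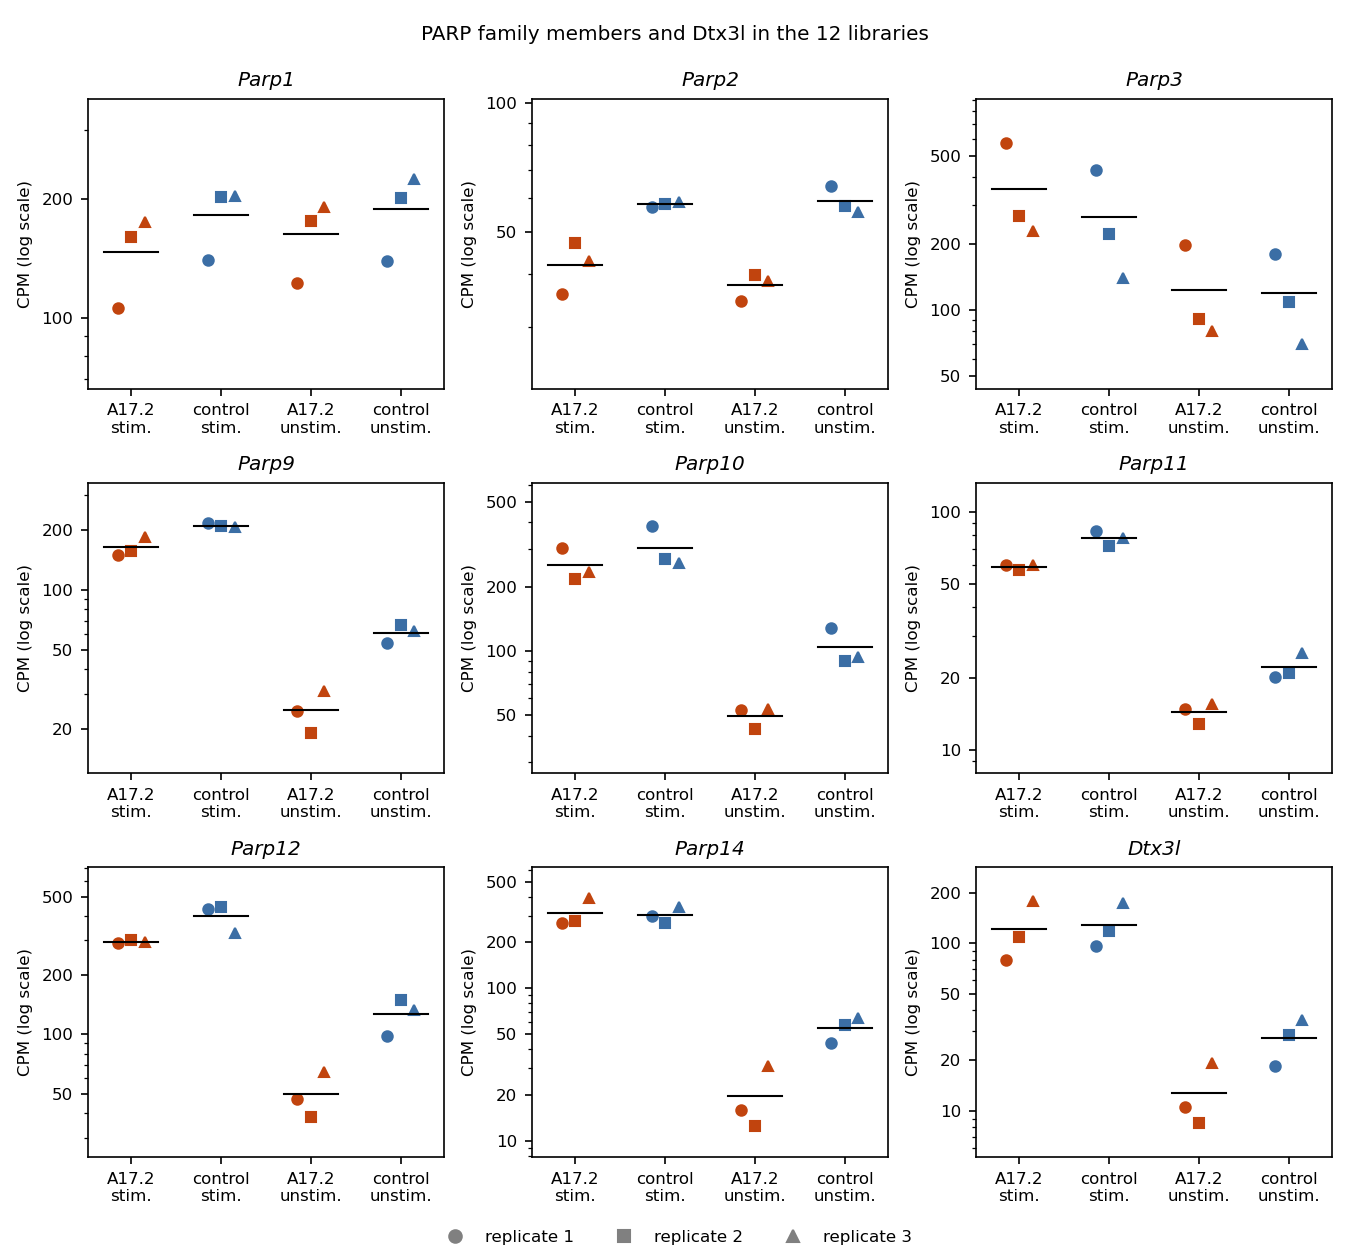
Normalised read counts (CPM, log scale) of the 9 genes in each library, by group; symbols give the replicate number and horizontal lines the group mean (n = 3). The 6 interferon-linked genes are higher in the stimulated groups, *Parp1* and *Parp2* are not, and for *Parp3* replicate 1 is the highest library in every group.

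The first question was which members respond to the cytokines. All 6 interferon-linked genes rose in A17.2 cells and all 6 rose in control cells, by log2 2.03 to 3.97 and 1.55 to 2.46, while *Parp1* and *Parp2* stayed within 0.16 of 0 on the log2 scale. Over all tested genes, 3.85% were called higher and 0.415% lower in A17.2 cells, and 3.14% higher and 0.185% lower in control cells (edgeR, adjusted p under 0.05). No member was called lower. The median log2 fold change of the interferon-linked class was 2.64 in A17.2 cells and 1.79 in control cells, against -0.05 and -0.04 over all tested genes, and that of the DNA-damage class was 0.16 and -0.03.

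*Parp14*, a mono-ADP-ribosyltransferase that takes part in STAT6 and interferon signalling, had the largest change. It had 269, 276 and 390.2 CPM in stimulated A17.2 cells against 16.0, 12.6 and 30.9 CPM in unstimulated A17.2 cells, a 15.7-fold rise (log2 3.97 ± 0.33 SE, adjusted p = 1.9e-05). It had 297, 270.0 and 344 CPM in stimulated control cells against 43.6, 57.6 and 63.7 CPM in unstimulated control cells, a 5.52-fold rise (log2 2.46 ± 0.31, adjusted p = 7e-04). Stimulated and unstimulated libraries did not overlap in either line. The lines overlapped when stimulated, whereas the unstimulated A17.2 libraries lay below the unstimulated control libraries.

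*Dtx3l*, the E3 ligase, had 78.9, 108.7 and 178 CPM in stimulated A17.2 cells against 10.6, 8.47 and 19.4 CPM in unstimulated A17.2 cells (9.52-fold, adjusted p = 5e-04). In control cells it had 95.7, 118 and 174 CPM when stimulated against 18.5, 28.5 and 35.1 CPM when unstimulated (4.72-fold, adjusted p = 0.0073). Replicate 3 was the highest library of every group. Its partner *Parp9*, which carries the macrodomains that read ADP-ribose, had 151, 156 and 185 CPM in stimulated A17.2 cells against 24.6, 19.1 and 31.0 CPM in unstimulated A17.2 cells (6.58-fold, adjusted p = 3.7e-06). *Parp9* had 217, 209 and 207 CPM in stimulated control cells against 54.1, 66.3 and 62.4 CPM in unstimulated control cells (3.46-fold, adjusted p = 0.00012). The replicates of *Parp9* lay closer together than those of *Dtx3l*, although the genes are neighbours.

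*Parp12*, a zinc-finger PARP with antiviral activity, reached 291, 302 and 294 CPM in stimulated A17.2 cells against 47.1, 38.2 and 64.2 CPM in unstimulated A17.2 cells (5.94-fold, adjusted p = 2.9e-05). It reached 434, 441 and 325 CPM in stimulated control cells against 98.6, 150.3 and 133 CPM in unstimulated control cells (3.14-fold, adjusted p = 0.00097). No stimulated library of either line was as low as any unstimulated library of that line. *Parp10*, a mono-ADP-ribosyltransferase, had 303, 217 and 235 CPM in stimulated A17.2 cells against 52.6, 42.8 and 53.1 CPM in unstimulated A17.2 cells (5.08-fold, adjusted p = 4.3e-05). The stimulated control libraries of *Parp10* had 384, 269.5 and 257 CPM and the unstimulated ones 128, 89.5 and 93.5 CPM (2.92-fold, adjusted p = 0.0012). Replicate 1 gave the highest *Parp10* level in 3 of the 4 groups.

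*Parp11*, another mono-ADP-ribosyltransferase and the gene with both motif runs in its first window, was the least abundant member per kilobase in all 4 groups but had the smallest standard errors of the class. It had 59.9, 57.0 and 59.8 CPM in stimulated A17.2 cells against 14.9, 12.8 and 15.6 CPM in unstimulated A17.2 cells (4.09-fold, adjusted p = 3.7e-06). It had 82.7, 71.7 and 77.4 CPM in stimulated control cells against 20.3, 21.0 and 25.6 CPM in unstimulated control cells (3.46-fold, adjusted p = 1.9e-05). Its groups did not overlap in either line.

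The DNA-damage PARPs did not share this response as a class. *Parp1* averaged 147 ± 36.2 CPM in stimulated and 163 ± 35.7 CPM in unstimulated A17.2 cells, and 182 ± 36.3 CPM in stimulated and 188 ± 44.1 CPM in unstimulated control cells (SD, n = 3 each). Its log2 differences were -0.15 in A17.2 cells (95% interval -0.71 to 0.40) and -0.05 in control cells (-0.61 to 0.51). *Parp2* averaged 41.9 ± 5.66 CPM in stimulated and 37.6 ± 2.75 CPM in unstimulated A17.2 cells, and 58.1 ± 0.811 CPM in stimulated and 59.1 ± 4.36 CPM in unstimulated control cells. Neither gene passed the test in either line, and the intervals for *Parp2* (-0.13 to 0.44 in A17.2 cells, -0.31 to 0.26 in control cells) lie below the fold change of every interferon-linked member in the same line.

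*Parp3* differed from its class. It had 571, 266 and 227 CPM in stimulated A17.2 cells against 197, 91.0 and 80.4 CPM in unstimulated A17.2 cells, and 431, 221 and 139 CPM in stimulated control cells against 180.2, 108.9 and 69.9 CPM in unstimulated control cells. Each stimulated library was higher than the unstimulated library of its number, by 2.90, 2.92 and 2.83 times in A17.2 cells and 2.39, 2.03 and 1.99 times in control cells. Replicate 1 lay above the other 2 in each group, and neither difference passed in edgeR without the block (log2 1.53, adjusted p = 0.20 in A17.2 cells, and log2 1.14, adjusted p = 0.43 in control cells). DESeq2 without the block called *Parp3* higher in A17.2 cells (adjusted p = 0.04) and not in control cells (adjusted p = 0.25). Stimulated and unstimulated libraries did not overlap in A17.2 cells but did in control cells. With the replicate block, *Parp3* rose in both lines (adjusted p = 5.1e-08 in A17.2 cells and 3.1e-06 in control cells), which brought the count to 7 of 9 members in each. The block fit called 10.6% of all tested genes higher and 6.94% lower in A17.2 cells, and 10.4% higher and 8.88% lower in control cells. When replicate 1 of every group was left out, *Parp3* passed in A17.2 cells (adjusted p = 0.0045) and not in control cells (adjusted p = 0.054).

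**Figure D2:**
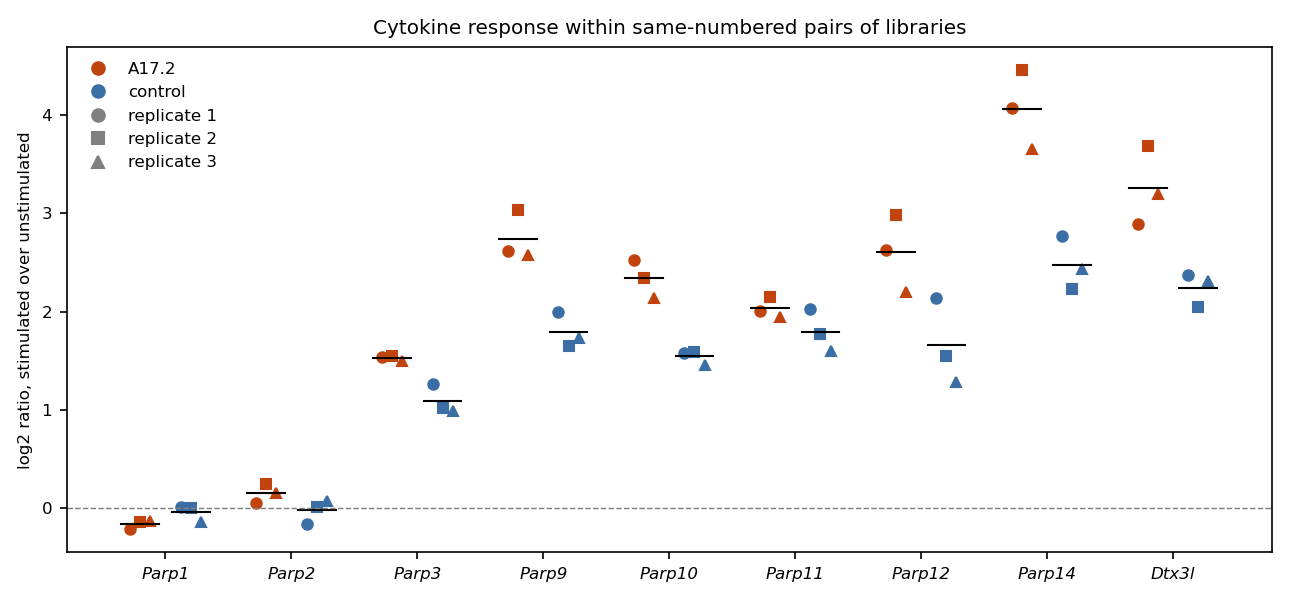
Log2 ratio of each stimulated library to the unstimulated library of the same number, for A17.2 and control cells; lines are means of the 3 pairs. *Parp1* and *Parp2* lie near 0, *Parp3* lies between 0.99 and 1.55, and *Parp14* in A17.2 cells lies highest, between 3.66 and 4.46.

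The next question was whether the members differed between A17.2 and control cells before stimulation. Unstimulated A17.2 cells had lower levels of 6 of the 9 genes, *Parp2* and 5 of the 6 interferon-linked genes, and higher levels of none. Over all tested genes 3.57% were called lower and 2.86% higher. Each shRNA was represented by a single line, and the tests measure the spread between libraries of the same line. A lower level in A17.2 cells cannot be told apart from a higher level in control cells or a difference between the pools. *Parp14* was lowest relative to control, with 16.0, 12.6 and 30.9 CPM in A17.2 cells against 43.6, 57.6 and 63.7 CPM in control cells (log2 -1.47 ± 0.30, 2.77-fold lower, adjusted p = 0.015). *Parp12* was 2.56-fold lower (log2 -1.35 ± 0.22, adjusted p = 0.0044), *Parp9* 2.45-fold lower (log2 -1.29 ± 0.17, adjusted p = 0.0017) and *Parp10* 2.10-fold lower (log2 -1.07 ± 0.21, adjusted p = 0.012). For each of these genes, every A17.2 library lay below every control library.

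*Parp11* and *Parp2* were lower by smaller amounts. *Parp11* had 14.9, 12.8 and 15.6 CPM in A17.2 cells against 20.3, 21.0 and 25.6 CPM in control cells (log2 -0.63 ± 0.13, 1.55-fold lower, adjusted p = 0.017). *Parp2* had 34.5, 39.8 and 38.5 CPM in A17.2 cells against 64.1, 57.5 and 55.8 CPM in control cells (log2 -0.65 ± 0.13, 1.57-fold lower, adjusted p = 0.013). Several calls in unstimulated cells depended on the fit and on single libraries. With only the compared groups in the fit, *Parp11* (adjusted p = 0.15), *Parp14* (0.075) and *Parp2* (0.07) did not pass, which left 3. Without A17.2 replicate 1, *Parp14* (adjusted p = 0.07), *Parp2* (0.06) and *Parp11* (0.055) did not pass, and without A17.2 replicate 2, *Parp11* (0.071), *Parp10* (0.055) and *Parp14* (0.054) did not, so that 3 remained called in each case. Without control replicate 2, *Parp14* (0.063) and *Parp11* (0.056) did not pass, and without control replicate 3 only *Parp11* (0.054) did not. *Parp9* and *Parp12* passed whichever library was left out.

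*Dtx3l* had 10.6, 8.47 and 19.4 CPM in A17.2 cells against 18.5, 28.5 and 35.1 CPM in control cells. Its groups overlapped, A17.2 replicate 3 being above control replicate 1, and the difference did not pass (log2 -1.09 ± 0.39, adjusted p = 0.14). Each A17.2 library was below the control library of its number, and with the replicate block *Dtx3l* was lower (adjusted p = 4e-05), which gave 7 of 9 members lower, where that fit called 17.5% of all genes lower and 15.9% higher. *Parp1* (log2 -0.21, 95% interval -0.76 to 0.35) and *Parp3* (log2 0.04, -1.10 to 1.17) did not pass in either fit. The class medians were -1.19 for the interferon-linked genes and -0.21 for the DNA-damage genes, against -0.01 over all tested genes.

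After stimulation none of the 9 genes differed between A17.2 and control cells at an adjusted p under 0.05 in edgeR without the block, where 3.68% of all genes were called lower and 3.17% higher. At an unadjusted p under 0.05 there were 2 such members, *Parp2* and *Parp11*, beside 21.0% of all genes. DESeq2 called the same 2 lower, beside 6.81% of all genes called lower and 5.90% higher. *Parp2* had 35.9, 47.1 and 42.8 CPM in stimulated A17.2 cells against 57.3, 58.2 and 58.9 CPM in stimulated control cells, groups that did not overlap (log2 -0.47 ± 0.13, adjusted p = 0.052). The groups of *Parp9* (log2 -0.36, adjusted p = 0.25 in edgeR without the block), *Parp11* (-0.39, 0.1) and *Parp12* (-0.44, 0.28) did not overlap either, A17.2 cells being lower. Those of *Parp10* overlapped (log2 -0.27, adjusted p = 0.53). For *Parp14* the log2 difference was 0.04 (95% interval -0.61 to 0.68) and for *Dtx3l* -0.08 (-0.90 to 0.74). The unstimulated intervals were -2.14 to -0.81 for *Parp14* and -1.94 to -0.25 for *Dtx3l*, and that of *Dtx3l* overlapped its stimulated interval. The change between the states is tested directly by the difference of responses below, where neither gene passed in edgeR without the block with low counts filtered.

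With the replicate block, 5 members were lower in stimulated A17.2 cells and 1 was higher, where that fit called 19.1% of all genes lower and 17.9% higher. The lower members were *Parp1* (log2 -0.32, adjusted p = 0.0051), *Parp2* (-0.48, 0.0017), *Parp9* (-0.37, 0.026), *Parp10* (-0.27, 0.049) and *Parp11* (-0.39, 0.0034), and the higher one was *Parp3* (0.46, 0.0038). *Parp3* was above its same-numbered control library in 3 of 3 pairs, by 1.32, 1.20 and 1.64 times. *Parp12* did not pass in this fit (-0.44, adjusted p = 0.06). The estimates of *Parp9*, *Parp10* and *Parp11* were smaller than in unstimulated cells. In the difference of responses below, the block fit called *Parp9* and *Parp10* and not *Parp11* (adjusted p = 0.59). The large share of all genes called by the block fit in stimulated cells stands beside the 6 of 9 members.

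**Figure D3:**
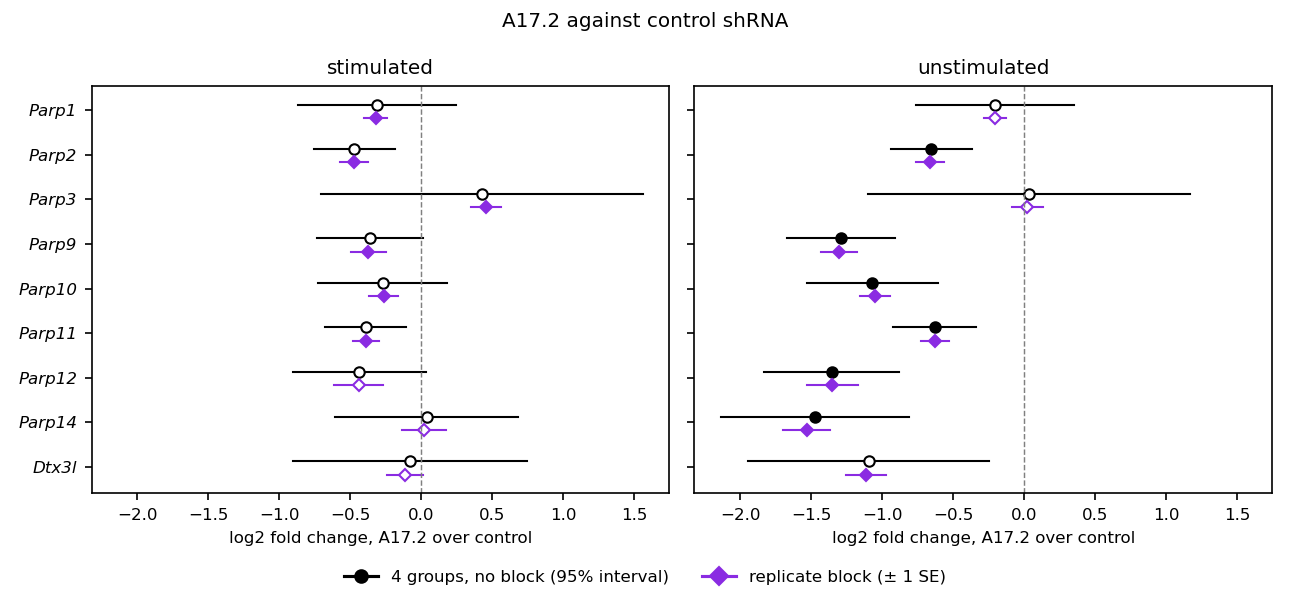
Log2 fold change of A17.2 over control cells for each member, in stimulated and unstimulated cells, without a block (circles, 95% interval) and with the replicate block (diamonds, ± 1 SE); filled symbols passed an adjusted p of 0.05. In unstimulated cells 6 circles are filled, all below 0, and in stimulated cells none.

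Leukocyte markers summed to 16.7 to 20.9 CPM in stimulated A17.2 cells against 23.0 to 30.3 CPM in stimulated control cells, and to 21.7 to 24.0 CPM in unstimulated A17.2 cells against 31.5 to 48.1 CPM in unstimulated control cells. Nearly all of this sum was *Cd14* (median 21.8 CPM over the 12 libraries), while *Ptprc*, *Cd3e* and *Adgre1*, 3 of the 5 markers, were below 1 CPM in every library. The 4 fibroblast markers, led by *Col3a1*, summed to 723 to 1091 CPM in stimulated A17.2 cells against 515 to 671 CPM in stimulated control cells, and to 478 to 926 CPM in unstimulated A17.2 cells against 385 to 488 CPM in unstimulated control cells. The part of these differences in the results for the members was not tested. In bulk RNA, fewer cells that express a gene and less RNA per cell cannot be told apart.

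Whether the cytokine response itself differed between the lines was tested as the difference of the 2 responses, A17.2 minus control. The same 12 libraries enter this test and the 4 comparisons above, so it is not independent of them. In edgeR without the block no member passed, and neither did any of the 15649 genes left by the count filter (0% higher and 0% lower, with 209 genes, 1.34%, and 4 of the 9 members at an unadjusted p under 0.05). With no filter on low counts, that fit called *Parp14*. DESeq2 called none of the members, and 0.166% of all genes higher and 0.00639% lower. With the replicate block 0.409% of all genes were called higher and 0.00639% lower. It called 4 of the 9 members, each with a larger ratio of stimulated to unstimulated level in A17.2 cells.

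The 4 were *Parp14* (log2 difference 1.55 ± 0.22 SE, adjusted p = 0.0049), *Dtx3l* (1.00 ± 0.19, 0.032), *Parp9* (0.93 ± 0.18, 0.028) and *Parp10* (0.79 ± 0.14, 0.024). Within numbered pairs *Parp14* was higher in stimulated than unstimulated cells by 16.8, 22.0 and 12.6 times in A17.2 cells and by 6.81, 4.68 and 5.39 times in control cells, without overlap. *Dtx3l* was higher by 7.44, 12.8 and 9.20 times in A17.2 cells and 5.17, 4.12 and 4.95 times in control cells. *Parp12* had a difference of the same size (0.91 ± 0.25) but did not pass (adjusted p = 0.22), and *Parp11* had the smallest of the class (0.24 ± 0.13, adjusted p = 0.59). For the DNA-damage members the differences with the block were -0.12 for *Parp1*, 0.18 for *Parp2* and 0.43 for *Parp3*, none of which passed. Mean stimulated levels in A17.2 and control cells were 312 and 304 CPM for *Parp14*, 122 and 129 for *Dtx3l*, 164 and 211 for *Parp9*, and 252 and 303 for *Parp10*. Mean unstimulated levels in A17.2 and control cells were 19.8 and 55.0, 12.8 and 27.4, 24.9 and 60.9, and 49.5 and 104 CPM in the same order of genes.

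The other genes of these pathways were examined as lists. None of the 8 other PARP family genes passed in any of the 4 comparisons without the block. With it, *Parp4* (the vault PARP), *Parp8* and *Zc3hav1* (the zinc-finger antiviral protein) rose with cytokines in both lines, by log2 0.89, 0.56 and 0.70 in A17.2 cells and 1.03, 0.81 and 0.64 in control cells, less than any of the 6 interferon-linked members in the same line. *Tiparp*, a PARP induced by the aryl hydrocarbon receptor, fell by 0.35 on the log2 scale in A17.2 cells with the block. *Tnks*, which encodes tankyrase, was higher in A17.2 than in control cells with the block, by log2 0.48 in stimulated and 0.58 in unstimulated cells. *Tiparp* was likewise higher in A17.2 cells with the block, by log2 0.31 in stimulated cells (adjusted p = 0.035) and 0.38 in unstimulated cells (adjusted p = 0.014). *Parp4* was lower in A17.2 cells with the block, by 0.49 on the log2 scale in stimulated cells (adjusted p = 0.0044) and by 0.35 in unstimulated cells (adjusted p = 0.04).

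Of the 6 tested genes of the deltex and E3 partner list, *Rnf213*, *Herc6* and *Rnf114* rose with cytokines in both lines (3 of 6) and the deltex genes *Dtx2*, *Dtx3* and *Dtx4* did not pass. *Herc6*, the main ISG15 ligase in mouse, rose by log2 2.92 in A17.2 cells and 1.89 in control cells, and was lower in unstimulated A17.2 than in unstimulated control cells (log2 -1.31, adjusted p = 0.012). *Rnf213* was also lower there (log2 -0.80, adjusted p = 0.03, and up to 0.13 with a library left out: it did not pass without replicate 2 of either line, A17.2 replicate 1 or control replicate 3), and with the block its cytokine response was larger in A17.2 cells (log2 difference 0.92, adjusted p = 0.037). *Dtx3l* was thus the only deltex family gene tested that passed with cytokines, *Dtx1* being too low to test.

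Of 8 genes in IFNγ signalling, 5 rose with cytokines in A17.2 cells and 4 in control cells. *Irf1* rose by log2 4.58 in A17.2 cells and 3.01 in control cells. *Socs1*, the feedback inhibitor, rose by 3.04 in A17.2 cells and 3.26 in control cells. In unstimulated A17.2 cells 3 of the 8 were lower than in unstimulated control cells, *Irf1* (log2 -1.59, adjusted p = 0.00095), *Irf9* (-0.94, 0.0044) and *Ifngr1*, the ligand-binding receptor chain (-0.97, 0.044), and none passed after stimulation without the block. With the block 3 of the 8 were lower in stimulated A17.2 than in stimulated control cells, *Ifngr1* (log2 -0.64, adjusted p = 0.0025), *Socs1* (-0.42, 0.0016) and *Irf9* (-0.31, 0.037). That fit called 19.1% of all tested genes lower there. In unstimulated A17.2 cells the block fit called 4 of the 8 lower, *Stat2* (log2 -0.79, adjusted p = 0.0029) beside *Irf1*, *Irf9* and *Ifngr1*. It called 17.5% of all tested genes lower in that comparison. Of the unstimulated calls without the block, *Irf1* and *Irf9* passed whichever library was left out, and *Ifngr1* only without control replicate 3 (adjusted p up to 0.13 otherwise). With the block, the difference of responses was called for *Irf1* (1.58, adjusted p = 0.0015). DESeq2 without the block also called *Irf1* (adjusted p = 1.4e-05), and edgeR without the block, with low counts filtered, did not (0.29).

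Of the 6 tested genes of NAD supply, 1 passed with cytokines, *Nampt*, the rate-limiting enzyme of NAD salvage. It rose by log2 1.07 in A17.2 cells and 0.89 in control cells, and was lower in A17.2 than in control cells by 0.61 on the log2 scale when stimulated (adjusted p = 0.026) and by 0.80 when unstimulated (adjusted p = 0.0076). The stimulated difference did not pass once any of the 6 libraries was left out (adjusted p up to 0.1). *Nmnat3*, which encodes a mitochondrial nicotinamide mononucleotide adenylyltransferase, was higher in A17.2 cells by log2 1.81 in stimulated cells (adjusted p = 0.0056) and 1.91 in unstimulated cells (adjusted p = 0.003). None of the 6 tested ADP-ribose removal genes, *Parg* among them, passed without the block in edgeR with low counts filtered. With no filter on low counts, that fit called 1 gene of the list higher in A17.2 than in control cells in each state. With the block, 2 of the 6 were higher in A17.2 than in control cells in both states. Over all tested genes, the block fit called 17.9% higher when stimulated and 15.9% when unstimulated. *Macrod1*, a mono-ADP-ribose hydrolase, was higher by log2 1.04 in stimulated cells (adjusted p = 0.00017) and 1.06 in unstimulated cells (adjusted p = 0.00014), and *Adprhl2*, which removes ADP-ribose from serine, by 0.35 (0.016) and 0.36 (0.013). DESeq2 without the block also called both genes in both states (adjusted p up to 0.041). With cytokines, the block fit called *Macrod2* (adjusted p = 0.039) and *Oard1* (0.021) lower in control cells and none of the 6 in A17.2 cells. Over all tested genes it called 8.88% lower in control cells and 6.94% lower in A17.2 cells.

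Of the 12 single-strand break repair partners of PARP1, none passed with cytokines without the block. *Apex1*, the abasic site endonuclease, was lower in A17.2 than in control cells by 0.68 on the log2 scale when stimulated (adjusted p = 0.045) and by 0.67 when unstimulated (adjusted p = 0.048). *Tdp1*, which clears blocked 3′ ends, was higher in stimulated A17.2 than in stimulated control cells (log2 0.48, adjusted p = 0.031). Neither stimulated call passed once any of the 6 libraries was left out (adjusted p up to 0.15 for *Apex1* and 0.14 for *Tdp1*), and the unstimulated call of *Apex1* passed only without control replicate 3. With the block, 2 of the 12 were higher and 3 lower in stimulated A17.2 cells, and 4 were higher and 3 lower in unstimulated A17.2 cells. Over all tested genes that fit called 17.9% higher and 19.1% lower when stimulated, and 15.9% higher and 17.5% lower when unstimulated. Among the repair genes it called was *Pcna*, the sliding clamp of DNA replication and repair, lower by 0.58 on the log2 scale when stimulated (adjusted p = 0.00011) and by 0.57 when unstimulated (adjusted p = 0.00014). The list medians were within 0.14 of 0 on the log2 scale in all 4 comparisons.

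**Figure D4:**
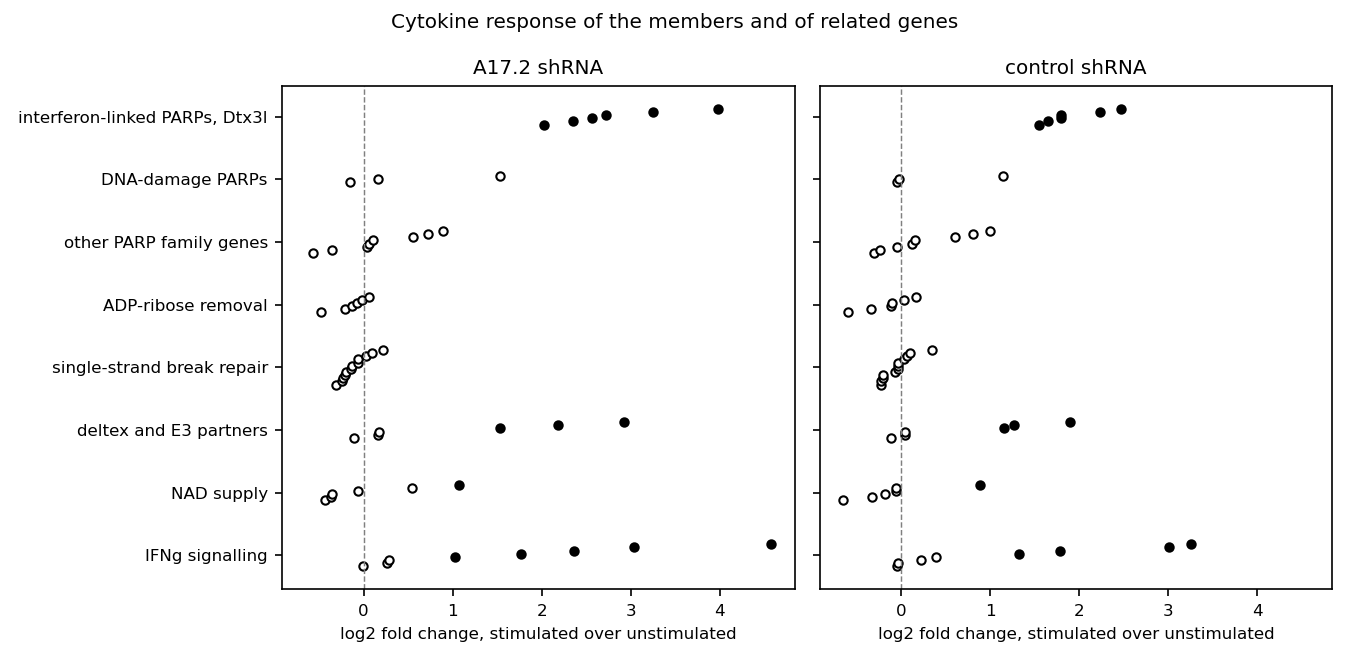
Log2 fold change with cytokines of the members and of the tested genes of 6 related lists, in A17.2 and control cells (edgeR without the block); filled points passed an adjusted p of 0.05. Filled points occur in the interferon-linked members, the E3 partners, the IFNγ signalling genes and, as *Nampt* alone, the NAD supply genes.

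To describe which genes followed each member, profiles over the 12 libraries were compared by the root mean square (RMS) difference of centred log2 CPM, a smaller value meaning a closer profile, among 10428 genes. The replicate number and the groups shape all these profiles, so closeness is a description with no test. The closest to *Parp9* were *Apobec3* (RMS 0.192), *Ifit1bl2* (0.21) and *Trafd1* (0.224), and to *Parp12* *Ube2l6* (0.197), *Vwa5a* (0.22) and *Apobec3* (0.258). *Parp14* was closest to *Gbp3* (0.342), *Ifi205* (0.354) and *Irgm1* (0.357), and *Dtx3l* to *Ifit1* (0.322), *Rnf19b* (0.34) and *Socs3* (0.392). *Parp10* was closest to *Xaf1* (0.182), *Il18rap* (0.221) and *Nfkbia* (0.222), and *Parp11* to *Snx10* (0.168), *Daxx* (0.193) and *Mvp* (0.207).

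For the DNA-damage genes the closest profiles were those of *Kdm2b* (0.0624), *Gna11* (0.0625) and *Axin1* (0.0635) for *Parp1*, of *Ube2e1* (0.109), *Rtraf* (0.109) and *Rfc2* (0.115) for *Parp2*, and of *Slc2a6* (0.237), *H2-Q4* (0.259) and *Abhd3* (0.266) for *Parp3*. Between members, *Parp9* and *Parp12* were the closest pair (0.153), closer than *Parp9* and its neighbour *Dtx3l* (0.416), and *Dtx3l* was closest to *Parp14* (0.368). *Parp3* was nearer to *Parp10* (0.712) than to *Parp2* (0.984) or *Parp1* (1.16).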

How the data were processed

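The 12 poly(A)+ libraries were built with an Ion Total RNA-Seq kit. Unnormalised counts for each gene symbol were deposited, for the build mm10 (submitters' processing notes). For the aligner, the counter and the use of strand, nothing is given in the sources used here. 2 further deposited tables hold the authors' own comparisons and were not used.

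Genes passing filterByExpr (15649 of 43271) were normalised by TMM and tested with edgeR 4.0.16 quasi-likelihood tests (R 4.3.3), with 1 fit of 4 groups and Benjamini-Hochberg adjustment over all tested genes (threshold 0.05). Alternatives were DESeq2 1.42.0, its size factors, other filters (none, or at least 50 counts in 3 libraries), only the compared groups, each library left out, replicate 1 of every group left out (chosen after seeing the data) and the replicate block. The fit without the block was tested on counts simulated with a smaller spread than in these libraries and with no replicate effect. That test does not give the error rates in these data. The block was checked by deviations from group means: the 18 same-numbered pairs, numbered as biological replicates in the labels, correlated at 0.31 to 0.85, and the 36 others at -0.75 to 0.46. No pair of replicates was a repeat of the same library: the chi-square statistic divided by its degrees of freedom was at least 20.2. The library labelled stimulated control replicate 1 has a corrupted raw file, per the labels, so that only its gene counts were given.

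The members, gene lists and tests were chosen with earlier results of these data known. Named genes are the members, *Adam17*, list genes (lowest adjusted p first) and, for each member, the 3 genes with the closest profile (mean log2 CPM of at least 1, prior count 2, predicted genes left out). CPM per kilobase used merged GENCODE exons. *Hpf1* and *Adgre1* were found under older symbols through RefSeq synonyms. A gene of the IFNγ list and a leukocyte marker are not reported here.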

Additional observations from a re-analysis of the deposited data

Results flagged for a closer look

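The cytokine responses of 4 members differed between A17.2 and control cells when the difference of responses was tested with the replicate block (edgeR). On the log2 scale, A17.2 minus control, the difference was 1.55 for *Parp14*, 1.00 for *Dtx3l*, 0.93 for *Parp9* and 0.79 for *Parp10*. For each gene the response was larger in A17.2 cells in 3 of 3 numbered pairs, but so it was for *Parp2*, *Parp3* and *Parp12*, which were not called. The pairs are the same libraries as in the block test. Mean unstimulated levels of the 4 were lower in A17.2 cells, and of the mean stimulated levels only that of *Parp14* was above control. In edgeR without the block, with low counts filtered, none of the 4 passed (adjusted p = 1 for each). DESeq2 without the block also called none (adjusted p = 0.14 for *Parp9* and 0.24 for *Parp14*). With no filter on low counts, edgeR without the block called *Parp14*.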

How the results depend on the processing

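The calls with cytokines were the most stable: 6 members were called higher in each line whichever library was left out, and 6 or 7 under every other alternative run. For unstimulated A17.2 against control cells, 6 members were called lower, 3 with only the compared groups in the fit and 3 to 6 with a library left out. For stimulated cells, 0 were called lower, but 5 with the replicate block, 2 with DESeq2, 1 with its size factors in edgeR and 1 with at least 50 counts in 3 libraries, and 1 was called higher with the replicate block. For the difference of responses, 0 were called higher, but 4 with the replicate block and 1 (*Parp14*) with no filter on low counts. Sign changes were limited to differences that passed in neither setting. Without replicate 1 of every group, *Parp2* with cytokines in control cells was at log2 0.061 and *Parp3* in unstimulated A17.2 against control cells at -0.0927. The motif counts did not change with the window of 150 bases before to 50 after the start.

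With single libraries left out, the log2 fold change crossed 0 for *Parp1* with cytokines (-0.30 to 0.036 in A17.2 cells, -0.21 to 0.14 in control cells) and in its difference of responses (-0.27 to 0.085), and for *Parp2* with cytokines in control cells (-0.065 to 0.052). It also crossed 0 for *Parp3* between the lines (-0.097 to 0.98 stimulated, -0.48 to 0.47 unstimulated) and in its difference of responses (-0.13 to 0.92), and in stimulated cells for *Parp14* (-0.16 to 0.13) and *Dtx3l* (-0.46 to 0.19). Among other genes it did so for *Dtx3* in stimulated cells (-0.068 to 0.89) and for *Adam17* in its difference of responses (-0.082 to 0.16). Over all genes, lower in A17.2 than in control cells were 576 when stimulated (2995 with the replicate block, 1066 with DESeq2, 201 with only the compared groups) and 559 when unstimulated (2735, 974 and 197 in the same order), and higher were 496 (2796, 924 and 206) and 447 (2490, 814 and 161). With cytokines, 602 were higher in A17.2 and 491 in control cells (1665 and 1631 with the replicate block), and 65 and 29 lower (1086 and 1390 with it, 181 and 137 with DESeq2, 15 and 9 with only the compared groups, and 53 in control cells with no filter). For the difference of responses, 0 were higher (64 with the replicate block, 26 with DESeq2, 28 with no filter) and 0 lower (1 with the replicate block and 1 with DESeq2). The cause of these changes was not tested.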
